A study of Carica papaya with 7 samples.

Results

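The plastid genome of papaya (Carica papaya) encodes 5 subunits of photosystem I, and all 5 were followed here by gene symbol: psaA (probe-set 245007_at), psaB (245006_at), psaC (244932_at), psaI (245017_at) and psaJ (244967_at). They are 5 of the 22810 probe-sets of the Affymetrix ATH1 GeneChip, an array of short probes designed for Arabidopsis thaliana. The array was hybridized with labelled RNA of pulp from 'Golden' papaya at 2 stages, unripe and ripe. Each stage had 3 columns of values, and each pulp sample was prepared from 12 fruits, without peel and seeds, harvested when the skin began to turn yellow, around 150 days after anthesis. A papaya genomic DNA array of the study, which shows how well each probe-set binds papaya sequence, was not analysed here, so that the RNA signals of the photosystem I genes stand without it.

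Photosystem I is the chlorophyll-protein complex of the thylakoid membrane that takes electrons from plastocyanin and, driven by light, passes them to ferredoxin. Its core genes are split between genomes: the large reaction centre proteins and a few small subunits are encoded in the plastid, while the remaining subunits and the antenna proteins are encoded in the nucleus. In fleshy fruit, chloroplasts of the unripe pulp commonly turn into chromoplasts during ripening, losing thylakoids and chlorophyll and storing carotenoids.

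The authors' values are signals from RMA, which summarizes the probes of each probe-set into 1 number, and they were deposited without a log. Within a stage, column 2 was column 1 multiplied by 1.19 and column 3 was the mean of both, for all 22810 probe-sets within a signal of 0.0011. The 3 columns of a stage were therefore counted as 1 set of values. The comparison of ripe with unripe pulp has no replicate check, and no SD and no p-value can be given for it. Each difference is given on the log2 scale as ripe minus unripe, from the mean log2 signal of a stage. A probe-set was called lower or higher when its difference was beyond 0.322 in size, which means that the larger signal was more than 25% above the smaller one. The study used this fold together with a p-value, and here it stands alone, describes size and is no test. The 27 control probe-sets for Bacillus subtilis transcripts, which match no plant gene, reached a signal of at most 8.22, and their differences ran from -0.28 to 0.12. No gene of the lists of seed, peel and ripening markers was matched to a named probe-set, so that the labelled tissue could not be checked on them. The match used only probe-sets with a single gene symbol, and an unmatched gene may still have a probe-set on the array.

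Of the 5 photosystem I genes, psaA, psaB and psaC had signals that were lower in ripe pulp and passed this threshold, psaJ was lower by less, and psaI differed by almost nothing. Of all 22746 probe-sets without controls, 3.53% were called lower and 3.57% higher, against 3 lower and 0 higher of the 5 photosystem I genes. Of the 11373 probe-sets with a mean signal above the median, a class that holds all 5 of these genes, 5.23% were lower and 5.58% higher. The median difference of the 5 genes was -0.37 on the log2 scale, where that of all probe-sets was -0.0047. These directions hold for the table as deposited. The bioB, bioC and bioD hybridization controls had a median difference of -0.60 between the stages, and a scale set on these controls would raise every probe-set by that amount, leave psaA at -0.028 and put psaB, psaC and psaJ on the higher side, at 0.13, 0.24 and 0.39. Relative to the median of all probe-sets the members' differences are the same under that scaling. In whole pulp RNA, fewer plastids or cells that hold them and less RNA of a gene per plastid cannot be told apart.

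**Figure D1:**
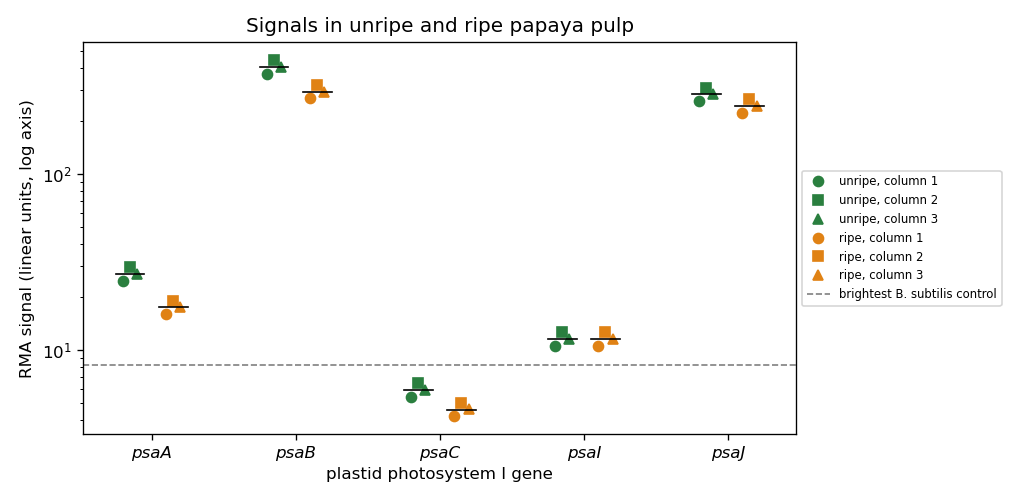
RMA signal (log axis) of each plastid photosystem I gene in the 3 unripe and 3 ripe columns; black bars are the geometric means of the columns and the dashed line is the brightest Bacillus subtilis control, at 8.22. The green points of psaA, psaB and psaC all lie above the orange ones, those of psaJ overlap them, those of psaI coincide with them, and psaC lies below the dashed line; columns of a stage differ only by a constant factor and are no replicates.

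The genes of the reaction centre had the largest differences. PsaA and PsaB are the large homologous proteins that together form the core of photosystem I, binding most of its chlorophylls and the first cofactors of electron transfer. The psaA signal was 24.8, 29.5 and 27.1 in the unripe columns and 15.97, 19.0 and 17.5 in the ripe columns. Every unripe column of psaA was above every ripe one, and the ripe signal was 64.5% of the unripe signal, a log2 difference of -0.63. This was the only photosystem I gene lower by over 1.5 fold, a size that 0.268% of all probe-sets passed in that direction. Only 40 of the 22746 probe-sets had a more negative difference than psaA.

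The psaB signal was 371, 442 and 406 in the unripe columns and 268, 319 and 293 in the ripe columns. The columns of both stages did not overlap here either. The log2 difference of psaB was -0.47, with 72.2% of the unripe signal left in ripe pulp, and 0.774% of all probe-sets had a more negative difference. The psaA difference minus the psaB difference was -0.16 on the log2 scale, a gap for which no error can be given. Among probe-sets without controls, the rank of psaB by signal was 13 from the brightest in both stages, although its signal was lower. Quantile normalization, which forces the same distribution of signals on every column, gave psaB a difference of 0.085 in place of -0.47. It was run with the control probe-sets included, so that the ranks it used are not those given here. The rank of psaA went from 106 to 267, and its difference stayed at -0.63 under quantile normalization.

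PsaC is the small stromal subunit that carries the terminal iron-sulfur clusters, from which electrons pass to ferredoxin. Its gene had signals of 5.42, 6.45 and 5.94 in the unripe columns and 4.201, 5.00 and 4.60 in the ripe columns, without overlap between the stages. The log2 difference was -0.37, outside the range of the Bacillus subtilis controls but inside that of the bioB, bioC and bioD controls. That range ran from -0.75 to -0.36 and also held the differences of psaA and psaB. Both psaC signals were below the brightest Bacillus subtilis control, and with 16 added to each signal before the log2 the difference of psaC shrank to -0.091. It passed the threshold by a small margin, with unripe pulp 1.29 fold above ripe pulp. Leaving out ripe column 1 or unripe column 2, which only shifts the scale between the stages, put psaC at -0.30 or -0.31, short of the threshold, whereas psaA and psaB stayed past it whichever column was left out. Scaling to the cre control, at -0.32, also left psaC just short of the threshold.

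PsaJ and PsaI are small hydrophobic subunits with membrane-spanning helices at the edge of the complex. PsaJ lies next to the plastocyanin-docking subunit PsaF, and PsaI next to PsaL and PsaH. The psaJ signal was 259, 308 and 283 in the unripe and 223, 265 and 244 in the ripe columns. These ranges overlapped, and the log2 difference was -0.22. Of all probe-sets 10.4% had a more negative difference than psaJ. Its rank from the brightest, without controls, went from 15 to 16, and quantile normalization, with controls included, left no difference between the stages.

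The psaI signal was 10.6, 12.6 and 11.6 in the unripe columns and 10.6, 12.6 and 11.6 in the ripe columns. Both stages coincided column by column, with a log2 difference of 0.0019, and 52.2% of all probe-sets lay below it. The value would be 0.61 with the scale set on bioB, bioC and bioD, and its sign turned when unripe column 1 or ripe column 2 was left out. Set against the psaI difference, that of psaA was at -0.63, that of psaB at -0.47 and that of psaC at -0.37, and psaI lay above psaJ by 0.22 on the log2 scale. These gaps are free of any scaling that moves all probe-sets by the same amount.

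The non-overlap of psaA, psaB and psaC says only that their fold was above 1.19, the factor between columns 1 and 2. Over all probe-sets, 7.47% had every unripe column above every ripe column and 7.04% the reverse. Bright probe-sets passed the threshold more often. Among the 2023 probe-sets whose mean over both stages was brighter than the Bacillus subtilis controls, 8.4% were lower and 7.71% higher. Of the 4 photosystem I genes in that class, psaA and psaB were lower, psaI and psaJ were not, and none was higher. Within it 1.29% of probe-sets had a more negative difference than psaA and 3.31% had one more negative than psaB.

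The photosystem I genes were set beside the rest of the plastid genome. Of the 78 protein-coding plastid genes that RefSeq annotates in papaya, 76 had a probe-set named by the same symbol, on 77 probe-sets, of which 72 are not photosystem I. Of these 72, 32 were lower and 5 higher, with a median log2 difference of -0.26, which becomes 0.34 on the scale of bioB, bioC and bioD. The photosystem I median of -0.37 and its 3 of 5 lower genes thus lay within the range of plastid genes in general, and 16 of the 72 probe-sets had a more negative difference than psaA, 24 than psaB, 32 than psaC, 39 than psaJ and 57 than psaI. Measured from the median of the other plastid probe-sets, psaA was at -0.37, psaB at -0.21, psaC at -0.11, psaJ at 0.047 and psaI at 0.26.

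By complex, the medians of the other plastid gene groups were -0.40 for photosystem II, with 9 of 15 genes lower and 1 higher, and -0.42 for the ATP synthase, with 4 of 6 lower. The NDH complex, which returns electrons to the plastoquinone pool around photosystem I, had a median of -0.49, with 6 of 11 genes lower and 1 higher. The cytochrome b6f complex, which passes electrons on towards photosystem I through plastocyanin, had the least negative median of these groups, -0.15, with 1 of 6 genes lower. Of the ribosomal protein probe-sets 9 of 20 were lower and 1 higher, with a median of -0.28, and of the RNA polymerase genes 2 of 4 were lower, with a median of -0.40. The photosystem I genes ran from -0.63 to 0.0019. This was a narrower range than in photosystem II, from psbD at -1.22 to psbB at 0.68, in the ATP synthase, from atpE at -1.04 to atpI at -0.064, and in the NDH complex, from ndhA at -0.74 to ndhB at 1.44. The other groups ran from petN at -0.76 to petA at 0.11, from rpl23 at -1.25 to rps14 at 0.37 and from rpoB at -0.78 to rpoA at 0.057. Of these range ends, atpI, ndhA, petA and rps14 had signals below the brightest Bacillus subtilis control at both stages, and psbB at the unripe stage. The probe-sets of ndhB and rpl23 can match more than 1 transcript. The groups hold different numbers of genes, and the ranges were not tested. On the scale of bioB, bioC and bioD all of these medians turned positive.

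**Figure D2:**
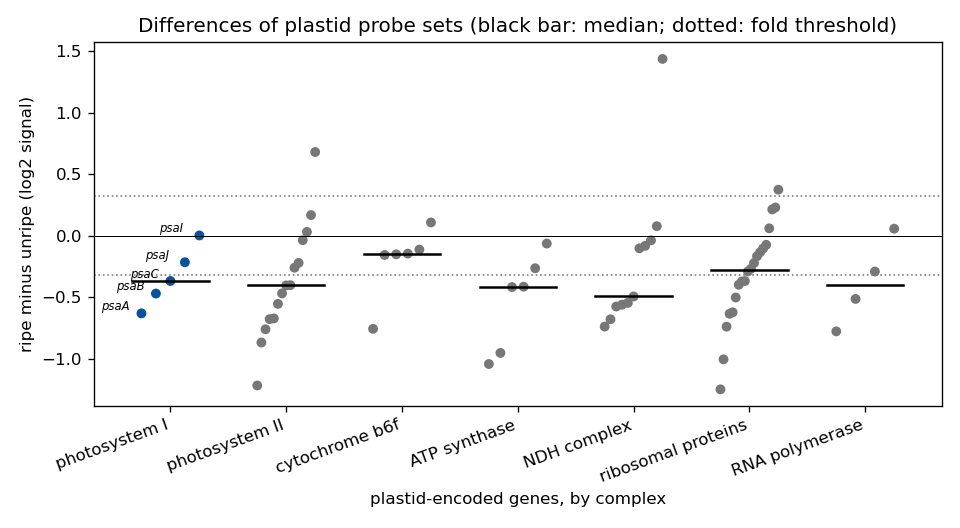
Log2 difference (ripe minus unripe signal, as deposited) of plastid-encoded probe-sets by complex, with the photosystem I genes in blue, medians as black bars and the threshold of 0.322 as dotted lines. The blue points run from psaA at -0.63 to psaI at 0.0019 inside the spread of the other complexes; a scale set on bioB, bioC and bioD would raise every point by 0.60.

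Plastid genes are transcribed in clusters, so that each photosystem I gene was also read against its neighbours in the gene order of the papaya plastid genome. The gene psaA is next to psaB, and both are transcribed together with rps14, for a ribosomal protein. The signal of rps14 was 4.15 at the unripe and 5.38 at the ripe stage, a log2 difference of 0.37, in the opposite direction to psaA and psaB and from signals below the Bacillus subtilis controls. On the other side of psaA, ycf3, whose product helps to assemble photosystem I, had a difference of -0.15, also from signals below the controls (4.99 and 4.50). Further out in this stretch, psbZ and psbC, for subunits of photosystem II, were at -0.22 and -0.68 beyond rps14, and rps4, for a ribosomal protein, was at 0.21 beyond ycf3.

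The gene psaC lies inside the cluster of NDH genes, between ndhD and ndhE. All 6 NDH neighbours of psaC had lower signals in ripe pulp, and 3 of them passed the threshold. These were ndhD, with signals of 11.9 and 8.43 and a difference of -0.49, ndhI with 22.1 and 15.1 and a difference of -0.55, and ndhA with 7.83 and 4.69 and a difference of -0.74. The ndhA signals, the most different of the 3, were both below the brightest Bacillus subtilis control, as were those of ndhE and ndhH. The genes ndhE, ndhG and ndhH were at -0.10, -0.082 and -0.038. Beyond ndhH, rps15, for a ribosomal protein, had the most negative difference of the stretch, -1.01, with signals of 16.5 and 8.22, and beyond ndhD, ccsA, which acts in the assembly of c-type cytochromes, was at -0.0040. The difference of psaC, -0.37, was thus between those of its direct neighbours ndhD and ndhE. The median of the 6 NDH neighbours was -0.30, and 0.31 on the scale of bioB, bioC and bioD. Over the 3 of them brighter than the controls, ndhD, ndhG and ndhI, it was -0.49.

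The gene psaI lies between accD, for a subunit of acetyl-CoA carboxylase, and ycf4, whose product is a further assembly factor of photosystem I, followed by cemA, for an envelope membrane protein, and petA, for cytochrome f. None of these 4 neighbours had a lower signal in ripe pulp. The signal of accD was 9.74 at the unripe and 12.4 at the ripe stage, a difference of 0.35, past the threshold. That of ycf4 was 142 and 156, a difference of 0.14. The genes cemA and petA were at 0.21 and 0.11. The petA signals, 3.87 and 4.17, were below the brightest Bacillus subtilis control, and that of cemA was below it at the unripe stage, at 8.14. The photosystem I gene with the highest difference therefore lay in the stretch whose other genes had differences above 0. On the far side of accD, rbcL, for the large subunit of Rubisco, was at 0.41, from an unripe signal of 8.14, also below that control.

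The gene psaJ is followed by rpl33 and rps18, both for ribosomal proteins. They were at -0.37 and -0.37, each past the threshold but from signals of 5.53 and 4.27 for rpl33 and 3.80 and 2.95 for rps18, below the Bacillus subtilis controls. Further along, rpl20 was at -0.22, the same as psaJ at this precision, with signals of 37.7 and 32.3, and on the other side petG was at -0.11. Across the 4 stretches, 22 flanking genes were measured, of which 7 were lower and 3 higher, with a median of -0.11. The 13 that share a transcription cluster with a photosystem I gene held 5 lower and 2 higher, with a median of -0.082. Over these 13 it would be 0.52 on the scale of bioB, bioC and bioD.

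**Figure D3:**
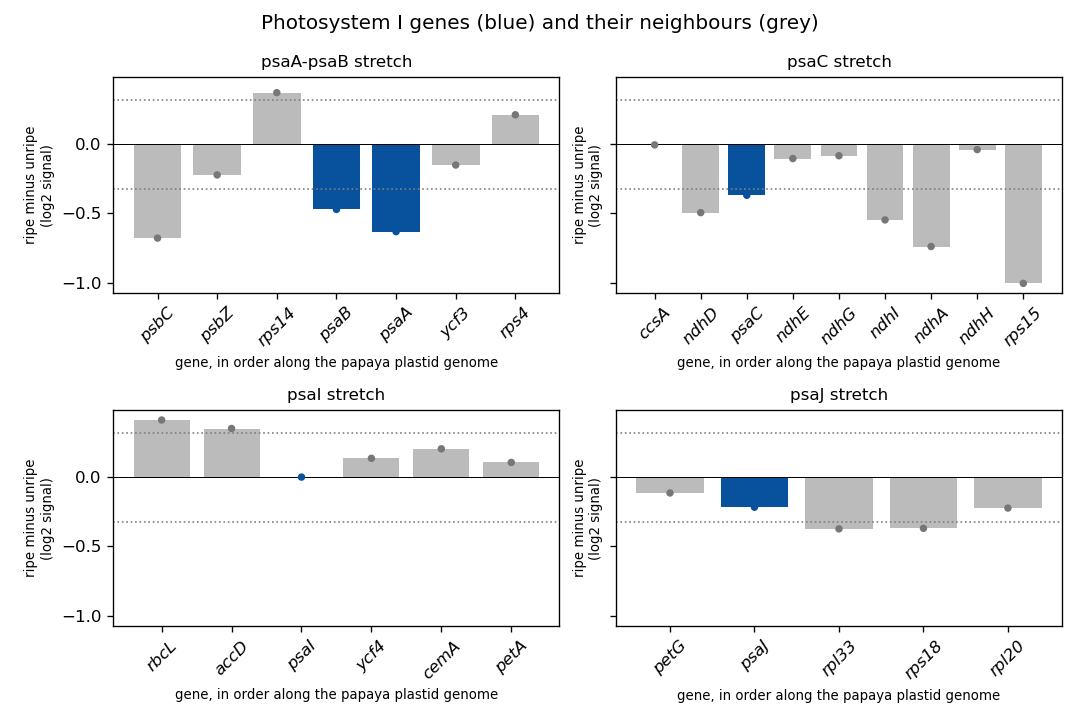
Log2 difference (ripe minus unripe signal, as deposited) of the photosystem I genes (blue) and the genes beside them (grey), in order along the papaya plastid genome as RefSeq annotates it; dotted lines mark the threshold of 0.322. The bars around psaC and psaJ are below or at 0, those around psaI are above it, and rps14 beside psaB is at 0.37; a scale set on bioB, bioC and bioD would raise every bar by 0.60.

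Few nuclear genes of photosystem I were matched by symbol and could be set beside the plastid ones. Of the 12 nuclear subunit genes listed, 2 were matched to a named probe-set. PSAE-1, for a stromal subunit that helps to bind ferredoxin, had a signal of 10.8 at the unripe and 10.1 at the ripe stage, a log2 difference of -0.11. PSAN, for a subunit on the lumenal side, had signals of 3.46 and 3.92, a difference of 0.18 from below the Bacillus subtilis controls. Neither passed the threshold, and both were above psaA, psaB, psaC and psaJ in their difference.

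None of the 6 listed antenna genes (LHCA) was matched, and of the 9 listed genes of electron donors, acceptors and cyclic electron flow only PGRL1B, which acts in cyclic flow around photosystem I, with signals of 6.58 and 6.71 and a difference of 0.027. Of the 7 genes listed as assembly factors 4 were matched. Besides ycf3 and ycf4 these were the nuclear genes PYG7 (AT1G22700), at 0.033, and AT1G76450, at 0.090, both with signals below the controls. Whether AT1G76450 is an assembly factor of photosystem I was not checked. None of these 4 genes passed the threshold in either direction. On the scale of bioB, bioC and bioD each of these nuclear and plastid genes would be higher by 0.60.

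The genes with signals most like those of each member were taken as the 3 named probe-sets at the smallest distance over the 2 log2 values, unripe and ripe. For psaB they were ycf1, at a distance of 0.15, psaJ at 0.58 and atpH at 0.61, which are all plastid genes. The probe-set of ycf1, which can match more than 1 transcript, had signals of 419 and 265 and a difference of -0.66, and atpH had signals of 536 and 402. For psaJ they were the mitochondrial gene nad4, at 0.35, with signals of 225 and 263 and so a difference in the opposite direction, then the plastid genes psbZ at 0.50 and ycf1 at 0.58. For psaA the nearest was ccb382, a mitochondrial gene of cytochrome c biogenesis, at 0.14, with signals of 25.1 and 18.6, followed by the nuclear genes AT3G28550 at 0.23 and AT1G16690 at 0.25. For psaC and psaI the nearest were nuclear genes at distances of up to 0.032 and 0.020. AT3G30240 was the nearest to psaC, with signals of 6.03 and 4.59, before AT4G19610 and AT2G41610. AT2G36950 was the nearest to psaI, with signals of 11.5 and 11.5, before AT3G50430 and AT5G08500.

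**Figure D4:**
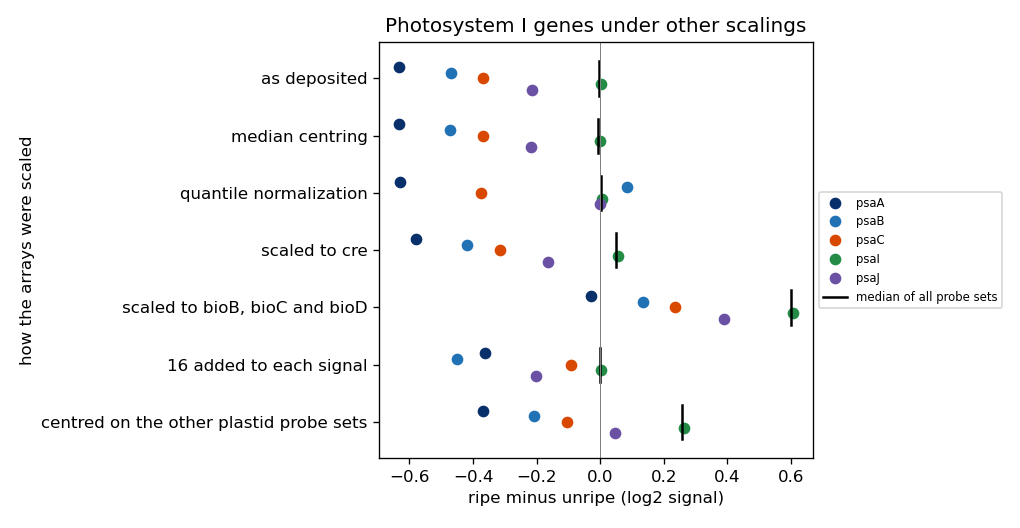
Log2 difference (ripe minus unripe signal) of the photosystem I genes as deposited and under other scalings of the arrays, one row for each; black ticks mark the median of all probe-sets. The genes keep psaA lowest except with 16 added to each signal, where psaB is lowest at -0.45; psaB is at 0.085 after quantile normalization, and the scale of bioB, bioC and bioD leaves only psaA below 0, at -0.028.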

How the data were processed

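Pulp RNA of unripe and ripe papaya was measured on ATH1 arrays. According to the methods, the authors generated .CEL files with MAS and applied RMA in GeneSpring with probes masked by genomic DNA hybridization. The deposited values are intensities (RMA signals, linear scale). The deposited table holds more probe-sets than the study kept after masking, and whether its values were computed with the mask is not stated. Plastid transcripts carry no long poly(A) tail, and how priming reached them is not stated. Of the columns, 1 (genomic DNA) was not analysed here.

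Samples were grouped by their titles. Samples came from harvests in 2007 (1 replicate of each stage) and 2010. The methods call the second and the third replicate those of 2010, and the labels do not say whether the column numbers follow this. Signals were transformed to log2 and averaged per stage. The 64 controls were left out of counts, leaving 22746 probe-sets, of which GEO's platform annotation gives 1 symbol for 13523, several for 493 and none for 8730. Gene order was taken from RefSeq (assembly ASM5485532v1), and no coordinate was used. Named genes were the 5 members, all measured neighbours of the same transcription cluster, assembly factors and nuclear photosystem I genes, the highest and lowest gene of each other plastid group, and the 3 genes most like each member. Flanking genes outside the clusters were named by position, after their values were seen. The likeness rule and 2 comparisons had included the genomic DNA signal, and were run without it or not run. The members and lists were chosen with earlier results of these data known. Since columns of a stage are proportional, limma and ANOVA were not run, and arrays give no depth, so that the number of value sets, 1 for each stage, limits the precision. Alternatives were other scalings, an added 16, a ratio of mean signals, filters on brightness, a fold of 1.5, leaving out columns and, after seeing the data, centring on the other plastid probe-sets and a filter on the mean brightness of both stages. The procedure was run on simulated data with planted differences beyond the threshold and little noise, which checks the code and not the precision of these data. Python 3.11.15, numpy 2.4.6, pandas 2.3.3 and matplotlib 3.10.9 were used.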

Additional observations from a re-analysis of the deposited data

How the results depend on the processing

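No paired analysis was possible because the columns of a stage are proportional and hold no replicate spread, so that a block for the replicate number has nothing to estimate. For the same reason no limma fit and no ANOVA was run, and comparisons with the genomic DNA signal, or restricted to probe-sets it marks, were not run. With 1 set of values per stage, no difference here has an error.

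Median centring and a ratio of mean signals kept the direction and the side of the threshold of each photosystem I gene and list median, and median centring moved the counts over all probe-sets to 815 lower and 803 higher. The largest changes came with the scale of bioB, bioC and bioD. The median of the 5 photosystem I genes became 0.24, psaB 0.13 and psaC 0.24, with 0 of these genes lower and 2 higher, and over all probe-sets 8 were lower and 21525 higher. On that scale the medians became 0.34 for the other plastid probe-sets, 0.52 for the 13 neighbours, 0.23 for the neighbours of psaJ, 0.20 for photosystem II, 0.19 for the ATP synthase, 0.11 for the NDH complex and 0.20 for the RNA polymerase. Quantile normalization put psaB at 0.085 and the median of the 5 genes at 0, and moved the medians of the other plastid probe-sets to -0.14, of photosystem II to -0.26, of the ribosomal proteins to -0.15 and of the neighbours of psaI to 0.28. Scaling to cre gave a median of -0.32, with 2 of the 5 genes lower since psaC missed the threshold, and with 487 probe-sets lower and 1359 higher. The medians were -0.030 for the 13 neighbours and -0.096 for cytochrome b6f. With 16 added the median was -0.20, with 30 lower and 17 higher, and the list medians lay between -0.31 for photosystem II and 0.099 for the neighbours of psaI, each closer to 0 than as deposited. Centring on the other plastid probe-sets, chosen after seeing the data, gave a median of -0.11 and 1 gene, psaA, lower. At a fold of 1.5, 1 of the 5 genes was lower, and 61 of all probe-sets were lower and 61 higher. Among probe-sets brighter than the Bacillus subtilis controls in at least 1 stage, 243 were lower and 213 higher, a class that a probe-set can enter through the stage in which it is high. By the mean of both stages, chosen after seeing the data, 170 were lower and 156 higher. The median of the other plastid probe-sets was -0.41 in the first class and -0.40 in the other, and in both classes it was -0.51 for the ribosomal proteins, -0.69 for the ATP synthase, -0.49 for the neighbours of psaC and 0.028 for the 6 bright neighbours of the 13, which became -0.082 without cemA, the only one of them below the controls at 1 stage.

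Leaving out 1 column moved the median of the 5 genes between -0.43 and -0.30, that of the other plastid probe-sets between -0.33 and -0.20, and the counts over all probe-sets between 433 and 1569 lower and between 418 and 1498 higher. The extremes came without column 1 of either stage, and columns 2 gave nearly the same. Of the 5 genes 2 or 3 were lower in every case. The columns differ by a constant factor, so that these values measure a shift of scale and not the spread of fruits.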
